A study of Rattus norvegicus with 25 samples.

Results

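Ccn1 (ENSRNOG00000014350, Cyr61 in older nomenclature) was followed as a single gene in the rat hippocampus after the forced swim test (FST). It is 1 of 32623 genes in the expression tables, and was chosen because its level stood high 20 min after the FST. Its row was read in 25 poly(A) RNA-seq libraries of 50-base reads from 19 male Sprague Dawley rats. The control group held 6 rats that underwent no FST. The 20-m group held 7 rats killed 20 min after the test swim, and the 24-h group held 6 rats killed 24 h after it. Rats of both FST groups had also swum in a pretest the day before, so that the groups differ in more than the time since a single swim. All rats were male, and each library came from the hippocampus of 1 rat. The sequencing runs formed 5 batches. Batch 1 held 3 rats of each group, and Batch 2 held 3 rats of the 20-m group, 3 of the 24-h group and 1 control rat. Rat 10 of the 20-m group and control rats 21 and 27 were sequenced in 3 runs each, in Batches 3 to 5, and the runs of a rat were combined. The expression tables carry identifiers without names, so the labelled tissue could not be checked against marker genes.

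CCN1 is a secreted matricellular protein of the CCN family, which sits in the extracellular matrix and acts on cells through integrins and heparan sulfate proteoglycans. Its gene is a classical immediate early gene. Growth factors, mechanical stretch and neuronal activity can induce it without new protein synthesis, and known activators of its transcription are the serum response factor SRF, the factor CREB and the YAP-TEAD complex of the Hippo pathway. In the brain it has been described in neurons and in cells of the vessel wall. In bulk tissue such as this, a change in the number of cells that express a gene and a change in RNA per cell cannot be told apart.

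The sequence just upstream of Ccn1 is shown so that it can be set beside those of the other named genes described below. The 250 bases before the start of Ccn1 lie at chr2:237225690-237225939 on the minus strand of the RefSeq assembly GRCr8, whereas the expression tables rest on Rnor 6.0. Read 5′ to 3′ on the strand of the gene, with capitals marking a TEAD motif, a half-site of the cyclic AMP response element (CRE) and a TATA box in that order, the sequence is as follows.
Ccn1: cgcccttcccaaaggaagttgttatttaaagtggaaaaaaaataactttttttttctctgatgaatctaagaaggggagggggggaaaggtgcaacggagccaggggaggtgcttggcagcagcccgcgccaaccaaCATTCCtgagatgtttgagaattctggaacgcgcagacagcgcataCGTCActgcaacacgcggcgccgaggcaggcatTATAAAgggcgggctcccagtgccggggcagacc

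Counting back from the start, with -1 as the last base before it, the TEAD motif (CATTCC, searched on both strands) lay at -113 to -108. It is found in 12.1% of the 33469 rat promoters of the same length in the RefSeq table, and in 0 of the 6 other promoters that could be matched among the named genes described below (Sik1, Btg2, Dusp1, Apold1, Klf4 and Zfp36). The CRE half-site (TGACG, both strands, here on the opposite strand as CGTCA) lay at -67 to -63 and is found in 18.2% of all promoters and in 4 of the 6 others. The TATA box (TATAAA, gene strand only) lay at -34 to -29 and is found in 8.1% of all promoters and in 1 of the 6 others, that of Apold1. A GC box (GGGCGG, both strands) lay at -28 to -23, directly after the TATA box, and is found in 30.5% of all promoters and in 4 of the 6 others. The letters of a full CRE (TGACGTCA, which contains the CRE half-site), of an AP-1 site (TGANTCA) and of a CArG box, the element bound by SRF, were not in this window of Ccn1. The full CRE is found in 1.6% of all promoters and in 2 of the 6 others (Btg2 and Dusp1), the AP-1 letters in 6.3% and 0 of 6, and the CArG box in 1.5% and 1 of 6 (Zfp36). The Ccn1 window held 54.0% G and C, against a median of 51.2% over all promoters. A match of letters is a description of the sequence and not a bound site. The 4 other promoters with a CRE half-site are compared in windows of 25 bases around the copy nearest the start, with the half-site in capitals.
Sik1: gtcaaaacgaCGTCAatgggctgtg
Btg2: ccaataatgaCGTCAgtgagcgatg
Dusp1: gggcgggtgaCGTCAccacccggtc
Apold1: ttcccagagcCGTCAttggttcctg
In GRCr8 these windows are chr20:9958812-9958836 and chr13:48087874-48087898 on the minus strand for Sik1 and Btg2, and chr10:17184722-17184746 and chr4:169552547-169552571 on the plus strand for Dusp1 and Apold1.

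Ccn1 was counted in few reads in control rats. In the control group, the combined runs of a rat gave 8 reads in rat 21, 3 in rat 22, 11 in rat 24, 1 in rat 25, 6 in rat 27 and 12 in rat 28. In the 20-m group, rat 1 had 62 reads, rat 2 had 114, rat 5 had 32, rat 6 had 59, rat 7 had 68, rat 10 had 78 and rat 12 had 28. In the 24-h group, rats 13, 14, 15, 17, 18 and 19 had 6, 7, 9, 1, 5 and 3 reads. The lowest rat of the 20-m group had more reads than the highest rat of either other group, while the control and 24-h groups overlapped over nearly their whole range.

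These counts stand against totals of 6217562 to 9032877 counted reads in control rats, 6513085 to 7774046 in 20-m rats and 6529689 to 8202448 in 24-h rats. Depth therefore differed little between groups. The 95% Poisson interval was 0.0253 to 5.57 reads for the single read of control rat 25 and 6.20 to 20.96 for the 12 reads of control rat 28, so these extremes of the control group are barely set apart by counting error. For rat 12 of the 20-m group the interval was 18.6 to 40.5 reads, and for rat 2 it was 94.0 to 137. Summed over rats, Ccn1 had 41 reads in the control group, or 0.929 CPM (counts scaled to the library total, 95% Poisson interval 0.667 to 1.26). The 20-m group had 441 reads, or 8.88 CPM (8.07 to 9.74). The 24-h group had 31 reads, or 0.713 CPM (0.484 to 1.01). Intervals of this kind cover counting error only, and reads were not marked with molecular identifiers.

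**Figure D1:**
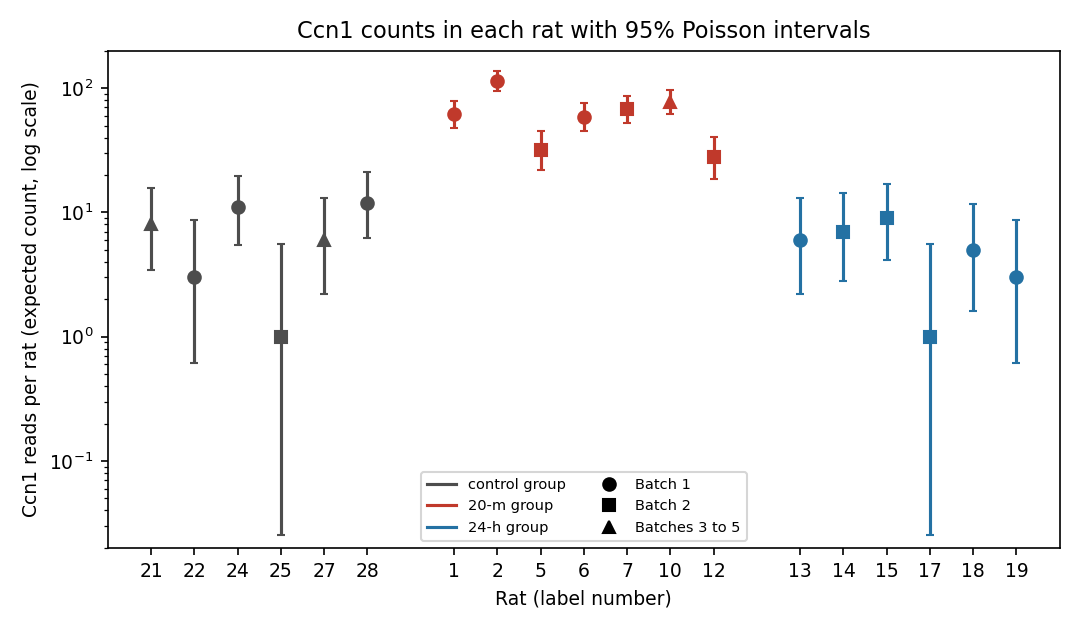
Reads counted for Ccn1 in each of the 19 rats on a log axis, by rat number on the horizontal axis, with colour for the group, symbol for the batch and bars for 95% Poisson intervals. The 20-m rats lie between 28 and 114 reads and the control and 24-h rats between 1 and 12.

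The counts are not blurred by shared reads as far as the tables show. Ccn1 is listed with 1 transcript of 1984 bases. The estimated count was a whole number in all 25 libraries, and its posterior standard deviation was 0 in all 25.

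Runs of the same rat gave a check on the measurement alone. Rat 10 of the 20-m group had 19, 22 and 37 reads in its 3 runs, which is 9.40 to 13.6 CPM. Control rat 21 had 3, 0 and 5 reads, and control rat 27 had 1, 2 and 3. The run with 0 reads allows up to 1.66 CPM (3 counts of its total). The spread between runs was of the order that counting alone gives, with a chi-square per degree of freedom of 1.01 for rat 10, 1.69 for rat 21 and 0.268 for rat 27. All 3 runs of rat 10 lay above all 6 runs of the control rats.

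**Figure D2:**
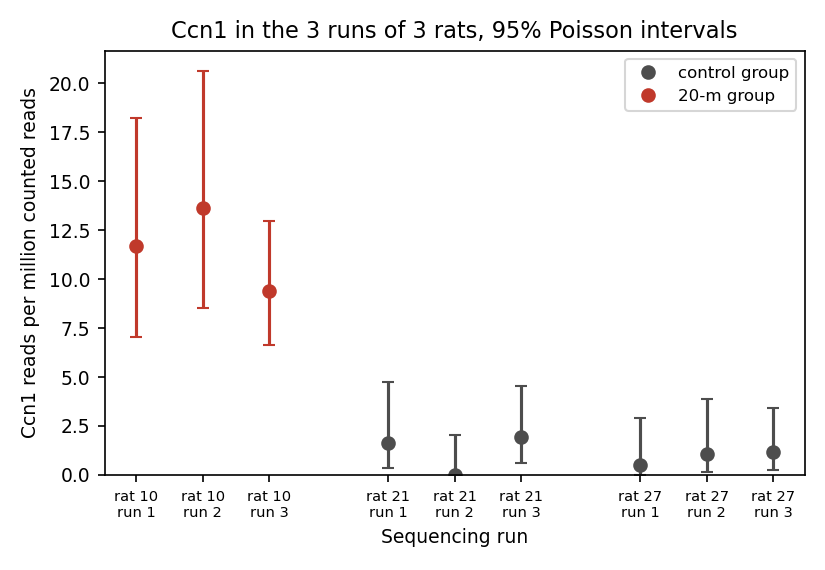
Ccn1 level in CPM in the 3 sequencing runs of rats 10, 21 and 27, with 95% Poisson intervals as bars. The runs of rat 10 lie at 9.40 to 13.6 and those of the control rats at 0 to 1.95.

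Between rats of the 20-m group the spread was wider than between runs of a rat. The chi-square per degree of freedom of the reads over rats was 10.2 in the 20-m group, 3.00 in the control group and 1.28 in the 24-h group. The coefficient of variation of the Ccn1 level was 41.8% in the 20-m group, where counting alone would give 12.6% at the mean of 63 reads. It was 64.7% in the control group, with 38.3% from counting, and 51.7% in the 24-h group, with 44.0% from counting. Most of the spread in the 24-h group is thus of the size of counting error, which is not so in the 20-m and control groups. For the same relative spread, the chi-square per degree of freedom rises with the number of reads. It therefore does not rank the groups by their spread. In the fit across all genes, the biological coefficient of variation of Ccn1 was 33.8%. The 500 genes of nearest mean level had a median of 17.2%, and 89.8% of them lay below Ccn1.

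In TPM, a level scaled for gene length as well as depth, the control rats 21, 22, 24, 25, 27 and 28 stood at 0.822, 0.23, 1.07, 0.09, 0.659 and 1.14. In the 20-m group, rats 1, 2, 5, 6, 7, 10 and 12 stood at 5.44, 9.65, 3.44, 5.42, 6.83, 7.97 and 2.60 TPM. The 24-h rats 13, 14, 15, 17, 18 and 19 stood at 0.53, 0.73, 0.76, 0.11, 0.50 and 0.29 TPM. Rat 2 was the highest of the 20-m group, and rats 5 and 12, both of Batch 2, were the lowest. The third 20-m rat of that batch, rat 7, lay above the group median of 5.44 TPM.

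The group means were 5.91 ± 2.47 TPM (SD, n = 7) in the 20-m group, 0.669 ± 0.432 TPM (SD, n = 6) in the control group and 0.487 ± 0.252 TPM (SD, n = 6) in the 24-h group. The control and 24-h means lie within 1 SD of each other. Ccn1 was a gene of low rank in the control and 24-h groups. Among genes with a TPM above 0, 1.74% to 21.6% had a lower level than Ccn1 in the control rats and 2.01% to 17.8% in the 24-h rats. In the 20-m group this share was 34.1% to 56.4%, which places Ccn1 near the middle of the detected genes even at its highest.

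A supplementary gene list of the study pairs 10 further identifiers used here with symbols, and these serve as a scale for Ccn1. Ordered by mean TPM, Ccn1 was 10th of the 11 genes in the control and 24-h groups and 8th in the 20-m group. Atf3, a stress-induced transcription factor, was last in each group, at 0.456 ± 0.111 TPM (SD, n = 6) in control rats. In the control group Ccn1 stood next to Sik1, a kinase that restrains CREB-dependent transcription, at 2.02 ± 0.657 TPM (SD, n = 6), with no overlap of rats. In the 20-m group its neighbours were Zfp36, a factor that promotes the decay of AU-rich mRNAs, at 6.82 ± 1.48 TPM (SD, n = 7), and Klf4, a Krüppel-like transcription factor, at 5.60 ± 0.965 TPM (SD, n = 7). Ccn1 did not differ from either of these neighbours beyond the spread between rats.

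For the comparison of groups, edgeR was fitted on all 13908 genes that passed a filter on low counts, with batch as a term. Ccn1 passed that filter only through the 20-m group, where it is high. The log2 fold change of Ccn1 in the 20-m group against the control group was 3.38 (standard error 0.361, 95% confidence interval 2.63 to 4.14), which is 10.4-fold (6.17-fold to 17.6-fold). It ranked 1st of the 13908 genes. Standard errors from edgeR were derived here from its F statistic, so they and their intervals are approximate, above all at low counts. Ccn1 was chosen for this contrast, so these values are a description and carry no test. At an adjusted p under 0.05 and a change over 1.5-fold, 6 genes were higher and 0 lower (0.0431% of the genes tested), with 1050 genes at an unadjusted p under 0.05 in edgeR. Every rat of the 20-m group lay above every control rat for 19 genes, 0.137% of those tested, with Ccn1 among them.

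Against the 24-h group, the 20-m group showed a log2 fold change of 3.49 for Ccn1 (standard error 0.374, 95% confidence interval 2.71 to 4.28), which is 11.3-fold (6.54-fold to 19.4-fold) and again ranked 1st of 13908. The 20-m rats enter this comparison as well, so it is also a description. It has the better balance of batches, and within batches the mean log2 level (log2 CPM, here with TMM scaling) was higher by 3.54 in Batch 1 and by 2.74 in Batch 2, with 3 rats against 3 in each. In this contrast 5 genes were higher and 0 lower at both thresholds (0.036% of the genes tested), with 1925 at an unadjusted p under 0.05 in edgeR. In 40 genes, 0.288% of those tested, the 2 groups did not overlap with the 20-m group above, Ccn1 included. In Batch 1 alone 0 genes passed in either contrast, with 442 (20-m against control) and 1377 (20-m against 24-h) at an unadjusted p under 0.05 in edgeR. There the log2 fold change of Ccn1 was 3.28 against control and 4.01 against the 24-h group.

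The comparison of the 24-h group with the control group did not serve to choose Ccn1, although it shares the control rats with the first contrast. The log2 fold change of Ccn1 was -0.11 (standard error 0.492), and the 95% confidence interval of the fold reached from 0.453 to 1.89. The p from edgeR was 0.826 and the adjusted p 1.00. This test rests on a gene that the count filter kept through the 20-m rats, and with the 24-h and control rats alone Ccn1 did not pass the filter and had no value. Both permutation tests that follow used log2 CPM from the same filtered set of genes, so they share this limit. An exact permutation test on log2 CPM over all 12 rats gave a difference of -0.238 with p = 0.595 (2-sided, 924 arrangements). A second test took only the rats of Batches 1 and 2, without control rats 21 and 27, and exchanged them within each batch. Weighted by the number of rats in a batch, the difference was 0.178 with p = 0.812 (exact permutation test, 80 arrangements). The 24-h mean was lower than the control mean by 0.46 on the log2 scale in Batch 1, with 3 rats against 3. In Batch 2 it was higher by 1.14, but the control group is there rat 25 alone, with its single read. The direction of this small difference was not stable, and it turned when control rat 24 (0.09) or control rat 28 (0.12) or 24-h rat 17 (0.02) or 19 (0.07) was left out. Of all genes 0 passed both thresholds in either direction (0% of 13908), with 441 at an unadjusted p under 0.05 in edgeR.

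The 10 other named genes had smaller changes than Ccn1 in both contrasts with the 20-m group. They were picked by the study on these rats, so their direction is not independent evidence. Lines of the study's list whose identifier and symbol conflict were left out, the lines for lower genes among them, so that all genes shown are ones listed as higher. Of the 10, Apold1, Dusp1, Zfp36 and Sik1 passed both thresholds against the control group, and Apold1, Dusp1 and Btg2 against the 24-h group. Apold1, an early response gene of vascular endothelium, came closest to Ccn1. Its log2 fold change was 2.53 (95% confidence interval 2.14 to 2.92) against control and 2.34 (1.97 to 2.72) against the 24-h group. For Dusp1, a phosphatase that inactivates MAP kinases, the same values were 1.69 (1.32 to 2.07) and 1.51 (1.15 to 1.88). For Btg2, an antiproliferative factor linked to mRNA deadenylation, they were 0.76 (0.45 to 1.07) and 0.89 (0.58 to 1.20). Atf3 (1.69), Fos, a subunit of AP-1 (1.25), and the transcription factors Klf2 (1.08) and Klf4 (0.80) had adjusted p-values of 0.0852 to 0.163 from edgeR against control. The locus AABR07033249.1, known by its clone-based name, stood at 0.90 with an adjusted p of 0.295 from edgeR. Ccn1 had the largest standard error of the 11 genes in each contrast. Against the 24-h group, the lower bound for Ccn1 (2.71) was just under the upper bound for Apold1 (2.72), and the difference between the 2 genes was not tested.

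**Figure D3:**
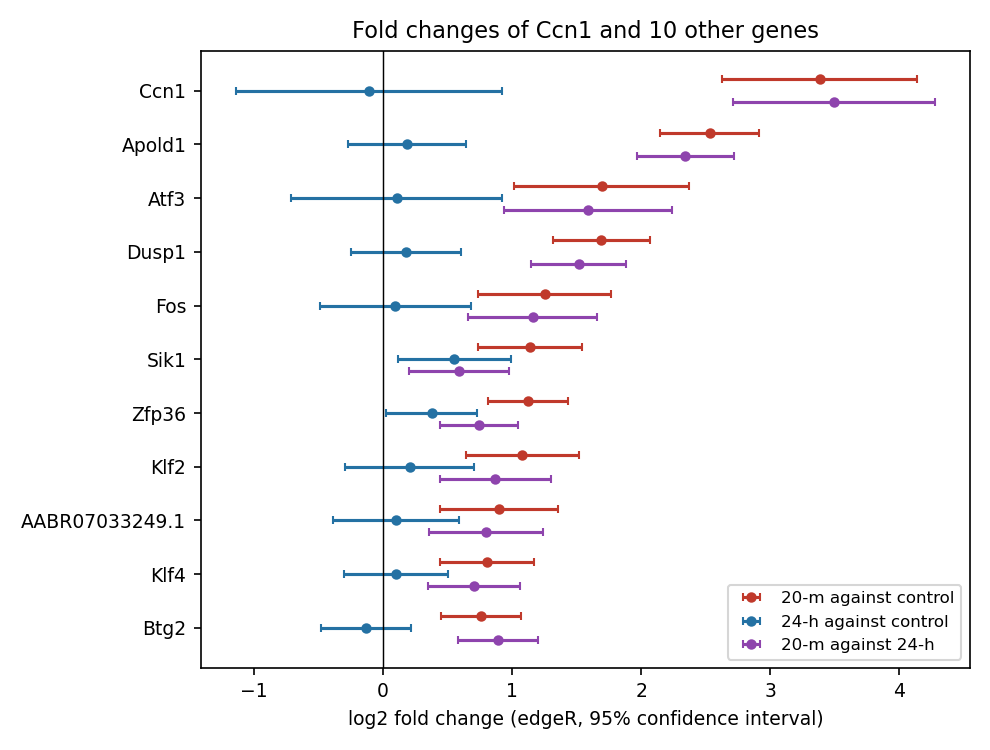
Log2 fold change from edgeR on the horizontal axis for Ccn1 and 10 other named genes, with 95% confidence intervals as bars and colour for the contrast. Ccn1 lies farthest to the right in both contrasts with the 20-m group (3.38 and 3.49) and has the widest interval around 0 in the contrast of the 24-h group with control.

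The remaining question was which genes go with Ccn1 from rat to rat once group and batch are removed. For this, 12456 other genes with a mean of at least 20 reads per rat were used, and each gene was represented by the residual of its log2 CPM. The Ccn1 residuals ran from -0.807 (rat 22) to 0.721 (rat 28) in the control group, from -0.490 (rat 12) to 0.607 (rat 2) in the 20-m group and from -0.783 (rat 17) to 0.928 (rat 15) in the 24-h group. Control rats carried 38.6% of the residual sum of squares of Ccn1 and 24-h rats 43.0%, while the 20-m rats, in which Ccn1 was measured with the most reads, carried 18.4%. The covariation over all 19 rats thus rests in the main on rats with 12 reads of Ccn1 or fewer.

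No gene passed correction in either test of covariation. In edgeR the Ccn1 level was added to group and batch. There 0 genes had a positive and 0 a negative slope at an adjusted p under 0.05 (0% of 12456). Among the named genes, the smallest adjusted p from edgeR was 0.734. At an unadjusted p under 0.05 there were 6.66% of the genes in edgeR, and 807 genes in limma voom, which also gave 0 after adjustment. For Pearson's r of the residuals, 0 genes had an adjusted p under 0.05 in 100000 permutations of the Ccn1 residuals within groups, and 1487 genes (11.9%) had an unadjusted permutation p under 0.05. Spearman's rho gave 0 and 1491. Since the permutations crossed batches and ignored that the fit had already spent degrees of freedom, their p-values may be too small. When 24-h rat 17, a rat with a single Ccn1 read, was left out, 172 genes passed for r, and 0 passed when any of the other 18 rats was left out. Leaving out rat 17 gave no gene past the threshold in edgeR, where 1633 had an unadjusted p under 0.05.

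Across the 12456 genes, r ran from -0.791 to 0.822 with a median of 0.0295. Of the genes 2.90% had an r over 0.5 and 4.09% an r under -0.5. Of the named genes 9 were counted well enough, Atf3 being the exception, and 8 of these 9 had a positive r with Ccn1. An r over 0.5 was found for 5 of the 9, and their median was 0.545. The named genes are not independent of each other, and they were all picked for their level in the same 20-m rats.

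**Figure D4:**
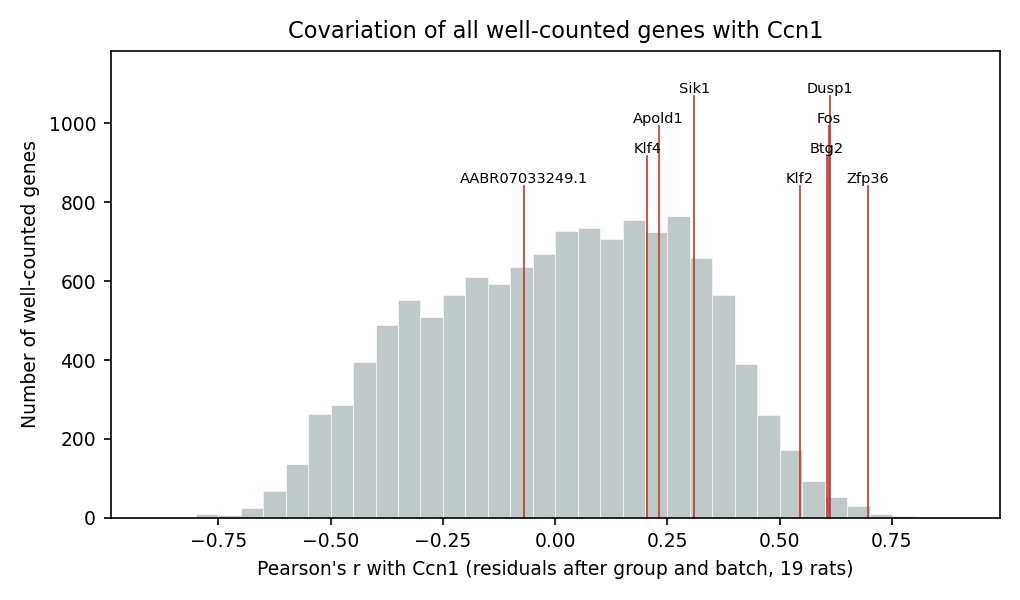
Histogram of Pearson's r between the residuals of Ccn1 and those of 12456 other genes after removal of group and batch (19 rats), with the number of genes on the vertical axis and red lines for 9 named genes. Zfp36, Dusp1, Fos, Btg2 and Klf2 lie between 0.545 and 0.697 in the right tail, and AABR07033249.1 lies at -0.0705.

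Zfp36 was the named gene closest to Ccn1, with an r of 0.697, rank 16 of 12456, and a rho of 0.719 (n = 19 rats). Adjusted over all genes, the permutation p was 0.236 for r and 0.213 for rho. Rat 15 had the highest residual of both genes among the 19 rats, 0.928 for Ccn1 and 0.396 for Zfp36. Rat 12, the lowest of the 20-m group in Ccn1, had the lowest Zfp36 residual of all rats, -0.449. When rats 14 and 15, whose Ccn1 residuals lie farthest from the median, were left out, r was 0.599 (n = 17, unadjusted permutation p = 0.00848).

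Dusp1 had an r of 0.612 (rho 0.640, permutation p = 0.0208 for r, adjusted p = 0.365). Fos had an r of 0.609 (rho 0.560, permutation p = 0.0142, adjusted p = 0.363), and Btg2 one of 0.605 (rho 0.483, permutation p = 0.0100, adjusted p = 0.363). Without rats 14 and 15, r was 0.564 for Dusp1 (unadjusted permutation p = 0.0567) and 0.614 for Btg2 (unadjusted permutation p = 0.0214). For Fos it was 0.422 (unadjusted permutation p = 0.0788). Klf2, a Krüppel-like factor of endothelium and other cells, had an r of 0.545 (rho 0.591, permutation p = 0.0109, adjusted p = 0.363). Without rats 14 and 15 its r was 0.573 (unadjusted permutation p = 0.0108). The slope in edgeR was 0.340 (standard error 0.106) for Dusp1, 0.270 (standard error 0.0879) for Zfp36 and 0.427 (standard error 0.150) for Fos, in log2 units of the gene per log2 unit of Ccn1. The adjusted p from edgeR was 0.734 for all 5 of these genes.

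Apold1 ranked high beside Ccn1 when differences between groups were kept, and lower when they were removed. With batch but not group removed, r with Ccn1 was 0.927 for Apold1, the second highest of 12456 genes after Dusp1 (0.947), and Zfp36 followed with 0.920. An unnamed gene, ENSRNOG00000054344, was 4th (0.914) and Btg2 5th (0.905). These values contain the difference between groups for which Ccn1 was chosen. With group removed as well, Apold1 had an r of 0.231 (rho 0.205, permutation p = 0.402, adjusted p = 0.737), rank 3271. Zfp36 and Dusp1 were at ranks 16 and 76. Sik1 (r 0.310, rho 0.337, permutation p = 0.234) lay above 83.24% of the genes and Klf4 (r 0.205, rho 0.246, permutation p = 0.498) above 70.65%. These 3 genes stood nearer to the others when rats 14 and 15 were left out. Then r was 0.409 for Apold1 (permutation p = 0.0866), 0.445 for Sik1 (permutation p = 0.0645) and 0.491 for Klf4 (permutation p = 0.0187, unadjusted), so that Sik1 and Klf4 lay above Fos (0.422). AABR07033249.1 had an r of -0.0705 (rho 0.00351, permutation p = 0.797), which turned positive when rats 14 and 15 were left out (0.269) or when batch was not removed (0.111).

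**Figure D5:**
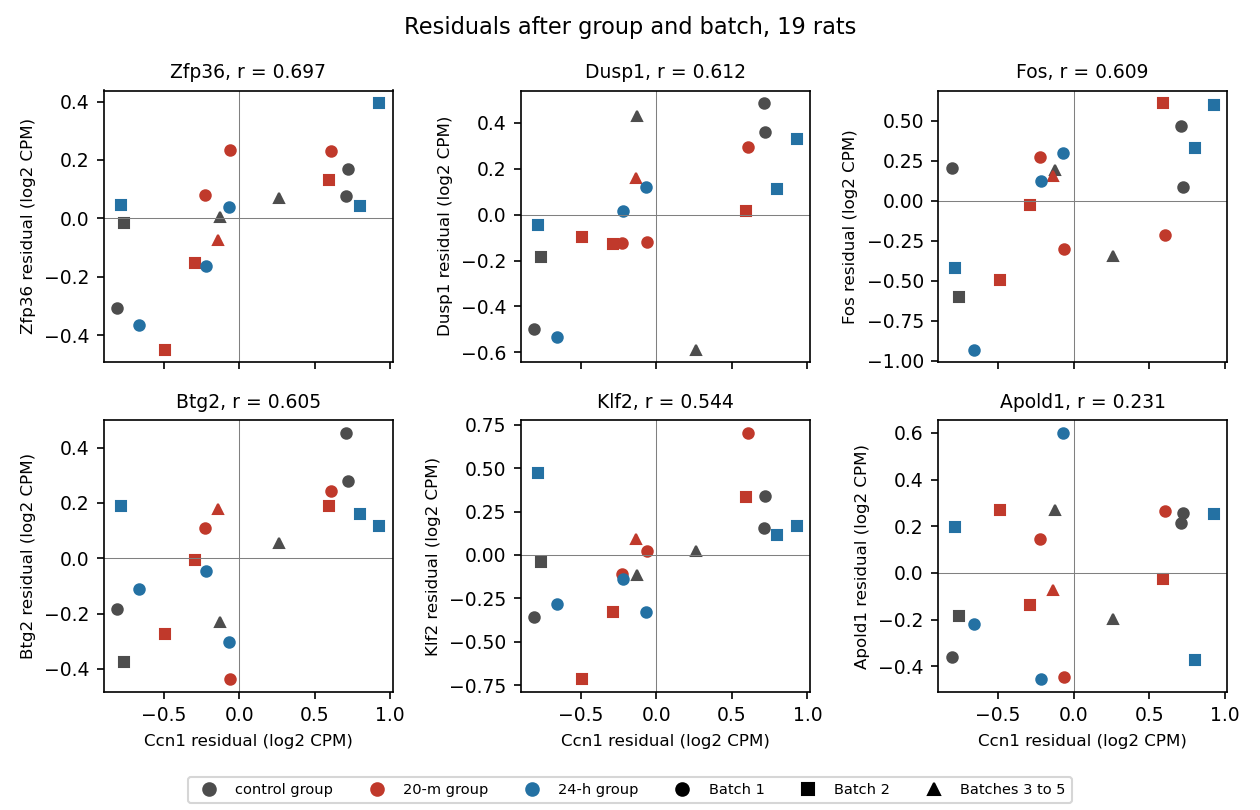
Residuals of 6 named genes (vertical axes) against those of Ccn1 (horizontal axes), in log2 CPM once group and batch were taken out, with 1 point for each of 19 rats, colour for the group and symbol for the batch. Points rise together for Zfp36, Dusp1, Fos, Btg2 and Klf2 (r from 0.545 to 0.697) and are scattered for Apold1 (r 0.231).

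Within the 7 rats of the 20-m group, where Ccn1 was read most precisely, r was 0.987 for Klf2, 0.893 for Klf4, 0.824 for Zfp36, 0.792 for Dusp1, 0.646 for Btg2 and 0.510 for Fos. Rat 10 was the only 20-m rat of Batches 3 to 5, so the removal of batch left it no weight in these values. With so few rats high values are common, and 27.3% of all genes exceeded 0.5 and 1.68% exceeded 0.9 in the same rats. Apold1 stood at 0.0907 and AABR07033249.1 at -0.568. In the 12 rats of the control and 24-h groups r was 0.797 for Zfp36, 0.678 for Fos, 0.663 for Btg2, 0.618 for Dusp1 and 0.468 for Klf2, where 8.72% of all genes exceeded 0.5. Zfp36, Dusp1, Btg2 and Fos thus had an r over 0.5 in both sets of rats. Klf4 differed most, at 0.0712 in the 12 rats, but the difference between the sets was not tested.

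The genes whose residuals were most like those of Ccn1 carry no symbol in the sources used here. The 10 highest had an r of 0.716 to 0.822. ENSRNOG00000020063 was first, with an r of 0.822 and a rho of 0.835 (permutation p = 1e-05 for r, the smallest that 100000 permutations can give, adjusted p = 0.125). Its r was 0.812 without rats 14 and 15, 0.921 in the 20-m group and 0.872 in the 12 other rats. With only batch removed, where differences between groups are kept, r was 0.275. Its own change between groups is not given here. ENSRNOG00000054344, which was 4th with only batch removed, had an r of 0.680 (rho 0.607, adjusted permutation p = 0.346) with group removed as well, and 0.358 without rats 14 and 15. At the other end, the 5 lowest had an r of -0.791 to -0.773. ENSRNOG00000021203 was lowest, at -0.791 (rho -0.786, adjusted permutation p = 0.135), with -0.793 without rats 14 and 15. ENSRNOG00000046305 was at -0.789 (rho -0.830, adjusted permutation p = 0.125), with -0.713 without these rats.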

How the data were processed

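The authors aligned trimmed reads to the Rnor 6.0 transcriptome (annotation release 93) with STAR and RSEM (versions not given in the sources used here). As deposited, the tables give each gene's expected count and TPM per library. Columns of lengths, FPKM and posterior estimates were deposited as well, and of these only length and the posterior values were read, for Ccn1. Here the runs of a rat were summed (TPM averaged with weights by run total), expected counts were rounded, and genes were filtered with filterByExpr defaults (minimum count 10, total 15). The quasi-likelihood test of edgeR 4.0.16 (R 4.3.3, TMM scaling) was fitted with group and batch over 19 rats, Batches 3 to 5 as 1 level. The standard error of a log2 fold change or slope was derived as its absolute size divided by the square root of F. Confidence intervals of fold changes were symmetric t intervals on the log2 scale built on that value. Calls needed a Benjamini-Hochberg adjusted p under 0.05 over all genes and a change over 1.5-fold. P-values from edgeR set a difference or slope against the spread between rats, counting error included. Those for correlations came from exchanging Ccn1 residuals within groups, and those of the exact tests from exchanging group labels between rats. Residuals came from log2 CPM (prior count 2), and correlations were ranked over genes with a mean of at least 20 counts. Permutation p-values and exact tests were computed with numpy 2.4.6, and Poisson intervals with scipy 1.17.1. Named genes were Ccn1, the genes with a symbol in the supplementary list (3 of its lines left out, since 2 symbols share an identifier and another symbol disagrees with its description), the 10 highest and 5 lowest residual correlations and the 5 highest with only batch removed. Genes without a name are given as counts and at most 2 identifiers in each direction. Ccn1, the lists and the tests were chosen with earlier results of these data known. Lists of CCN family, Hippo and SRF genes and of cell type markers could not be matched to identifiers and were not analysed here. Run numbers shared by rats of the 20-m and control groups mark sequencing batches, not paired animals. Alternatives comprised limma 3.58.1 (voom), DESeq2 1.42.0, ComBat (sva 3.50.0), other scalings, filters and prior counts, TPM, subsets of batches and rats, and each rat left out. Statistical scripts were tested on simulated data.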

Additional observations from a re-analysis of the deposited data

Results flagged for a closer look

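Ccn1 itself had no rat that stood apart from its group by Dixon's test on TPM, CPM or log2 CPM. Of 39 groups of values tested (TPM of the 11 named genes, and CPM and log2 CPM of Ccn1, in each of 3 groups of rats), 3 held such a rat, and chance gives about 1 in 20. All 3 were the same animal, rat 13 of the 24-h group. It had 4.61 TPM for Sik1, 3.89 TPM for Apold1 and 5.87 TPM for Klf4, each the highest of its group, with a gap to the next rat of 0.796, 0.626 and 0.644 of the group's range against a critical value of 0.625. Ccn1 stood at 0.53 TPM in this rat, between the other rats of the 24-h group.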

How the results depend on the processing

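Ccn1 stood higher in the 20-m group in every setting tried. Its log2 fold change was 3.156 to 3.597 against control and 3.324 to 3.784 against the 24-h group when each rat was left out, and 2.137 and 2.097 on log2(TPM + 1), a scale that understates low genes by construction. For the 24-h group against control, leaving out each rat gave -0.3723 to 0.1227. The sign turned without control rat 24 (0.09437), control rat 28 (0.1227), 24-h rat 17 (0.02135) or 24-h rat 19 (0.07231), with ComBat before limma (0.0001256) and with TPM at pseudocounts of 0.1 (0.1013) and 1 (0.04072). It was -0.7301 in Batch 1 alone, and Ccn1 was not past the threshold in any setting. With these 2 groups alone Ccn1 does not pass the count filter, so no value was obtained.

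Genes called in the 20-m group against control numbered 4 to 8 with each rat left out, 0 in Batch 1 alone, 10 with no filter, 15 with DESeq2 and 15 with ComBat. Against the 24-h group they numbered 4 to 9 (9 without rat 2), 0, 9, 27 and 48 in the same order. The reported edgeR fit called 0 genes lower in the 20-m group. Against the 24-h group 2 were lower with no filter, 11 with DESeq2, 24 with ComBat, 3 without rat 2, 1 without rat 17 and 1 with TPM at each pseudocount, and against control 1 with no filter, 3 with ComBat and 1 with TPM at a pseudocount of 1. With the 5 batches as a replicate block over 25 libraries (limma voom, correlation within rat 0.421), 20 genes (1 lower) and 19 genes (8 lower) passed, and the values of Ccn1 were 3.469, 3.584 and, for 24-h against control, -0.1147. The block changed no call of Ccn1. The 24-h group against control gave 0 genes in every setting, with 248 to 1041 at an unadjusted p under 0.05. The cause of these differences was not tested.

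Genes with a slope on Ccn1 numbered 0 in every setting (500 to 1633 at an unadjusted p under 0.05). For residual correlations the number was 0 to 172 with each rat left out. The r of AABR07033249.1 ran from -0.263 to 0.216 with each rat left out and turned positive without rat 2 (0.044), 14 (0.216) or 19 (0.031), on log2(TPM + 0.1) (0.07), without the batch term (0.111), without rats 14 and 15 (0.269) and in the 24-h and control rats alone (0.113). Relative to the count, counting error is widest at the Ccn1 baseline of 1 to 12 reads per rat.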
